A study of Brachypodium distachyon with 45 samples.

Results

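The plant circadian clock is a set of genes that repress one another in turn, so that some of them peak at dawn and others in the evening, and the level of each depends on the hour at which a leaf is harvested. In Arabidopsis the dawn transcription factors CCA1 and LHY repress evening genes such as TOC1 and GI, and members of the pseudo-response regulator family (PRR) repress CCA1 and LHY during the day. In grasses the same machinery feeds into the measurement of day length, through PPD1 (PRR37), ELF3 and the red-light receptor PHYC, and so into the timing of flowering.

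The expression of 7 clock and photoperiod genes of Brachypodium distachyon was described in leaves of 3 inbred lines, ABR4, ABR8 and KOZ1. The 7 genes were chosen by their BRADI identifiers, and each identifier was held by 1 locus, giving 7 of the 33852 loci in the table. The gene symbols came with this choice of identifiers and were not checked against an annotation. The question was whether the 15 groups of leaves differed in these genes as leaves harvested at another hour would, with the dawn and evening genes moving in opposite directions.

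The lines are classified as intermediate in drought tolerance (ABR4), tolerant (ABR8) and susceptible (KOZ1). All plants were raised in compost under long days and watered for 32 days after germination. For each line, leaf tissue was then taken at T0, when the drought treatment began, and from control (watered) and drought plants at T1, 4 days later, and at T2, 8 days later, which gives 5 groups per line with 3 libraries each and 45 libraries in all. The hour of harvest was not given in the sources used here, and harvest day, leaf age and hour of harvest cannot be told apart in this design.

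The treatment recorded with the samples contradicted their names for 15 libraries, namely the 12 libraries of ABR8 at T1 and T2 and the 3 libraries of KOZ1 at T0. The names, which match the study's description of the sampling, were used throughout. The deposited table holds 1 FPKM value per locus and group (a count of sequenced fragments scaled by transcript length and library size), pooled by the authors over the 3 libraries, with lower and upper 95% limits. The study's methods give as many harvested plants as libraries, with biological replicates in each group. Single libraries could not be compared here, so how the plants of a group varied enters only through these limits. For the 7 genes the standard error lay between 16.4% and 31.6% of the FPKM value. In leaf RNA as a whole, fewer cells of a type and less RNA per cell cannot be told apart, and the tissue was not checked against marker genes, since the files and the gene table carry no descriptions to build a marker list from.

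Some groups stood apart before any clock gene was compared. The sum of FPKM over all loci was 479128 in KOZ1 T2 drought and between 624700 and 759455 in the other 14 groups. The T1 drought groups of ABR4 and ABR8 each held transcripts of the other line. In ABR4 T1 drought, 75 of 75 loci that were at 0 in the other 4 ABR4 groups and at 5 FPKM or more in ABR8 were above 0, at a median of 35.9% of the ABR8 level. In ABR8 T1 drought, 27 of 27 such loci were above 0, at a median of 35.95% of the ABR4 level. In each of the other 8 groups of these lines the median was 0. By the library names, the 6 libraries of ABR4 T0 and T1 control shared 1 sequencing run and lane, while the 45 libraries covered 7 combinations of run and lane. In ABR8 the T0 libraries were from lane 2 (replicate 2 from lane 2 of another run) and the T2 controls from lane 3. In KOZ1 the T0 libraries were from lane 3 and the T2 controls from lane 4.

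CCA1/LHY (Bradi3g16515), the dawn transcription factor, lies on chromosome 3 between 14681360 and 14691940 of the v3.0 assembly. At T0 its level was 16.9 FPKM in ABR4 (95% limits 11.2 to 22.5), 33.8 FPKM in ABR8 (21.8 to 45.8) and 31.9 FPKM in KOZ1 (20.2 to 43.5). In the T1 controls it was 93.7 FPKM in ABR4 (60.1 to 127), 167 FPKM in ABR8 (99.8 to 234) and 139 FPKM in KOZ1 (89.6 to 188). In the T2 controls it was 266 FPKM in ABR4 (146 to 386), 288 FPKM in ABR8 (155 to 421) and 251 FPKM in KOZ1 (143 to 360). The order T0, T1, T2 therefore held among the watered leaves of all 3 lines. With drought at T1 the level was 153 FPKM in ABR4 (96.2 to 210), 151 FPKM in ABR8 (87.5 to 214) and 162 FPKM in KOZ1 (102 to 222). With drought at T2 it was 229 FPKM in ABR4 (132 to 326), 344 FPKM in ABR8 (184 to 504) and 121 FPKM in KOZ1 (73.7 to 169). KOZ1 T2 drought was thus the one T2 group whose level lay within the range of the T1 groups.

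The highest CCA1/LHY group, ABR8 T2 drought, was 20.4-fold above the lowest, ABR4 T0. All 3 T0 groups lay below all other groups: their highest upper limit was 45.8 FPKM and the lowest lower limit of the other 12 groups was 60.1 FPKM. When the 15 groups were ordered by level, this step between T0 and the rest was the 1 place of 14 where the limits of neighbours did not overlap.

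TOC1 (Bradi3g48880, chromosome 3, 50073558 to 50076450), a pseudo-response regulator of the evening, ran the other way. At T0 its level was 23.4 FPKM in ABR4 (15.5 to 31.3), 20.3 FPKM in ABR8 (13.5 to 27.1) and 22.7 FPKM in KOZ1 (15.2 to 30.3). In the T1 controls it was 3.88 FPKM in ABR4 (2.03 to 5.74), 6.03 FPKM in ABR8 (3.50 to 8.57) and 6.91 FPKM in KOZ1 (4.14 to 9.67). In the T2 controls it was 1.63 FPKM in ABR4 (0.62 to 2.64), 2.02 FPKM in ABR8 (0.82 to 3.21) and 2.18 FPKM in KOZ1 (0.92 to 3.44). Here too the time points kept one order in the watered leaves of all 3 lines, from high to low. With drought, TOC1 stood at 4.42, 4.83 and 5.22 FPKM at T1 in ABR4, ABR8 and KOZ1. With drought at T2 it stood at 2.18 FPKM in ABR4 (0.89 to 3.47), 2.55 FPKM in ABR8 (1.15 to 3.95) and 5.60 FPKM in KOZ1 (3.17 to 8.04). The last of these again lay within the range of the T1 groups.

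The TOC1 levels spanned 14.4-fold. The lowest lower limit of the T0 groups was 13.5 FPKM and the highest upper limit of the other groups was 9.67 FPKM, so that for TOC1, as for CCA1/LHY, the limits were apart in all 36 pairs of a T0 group with a later group. How many of all loci had limits apart, in these pairs or in those counted below, was not determined, so these counts are descriptions.

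**Figure D1:**
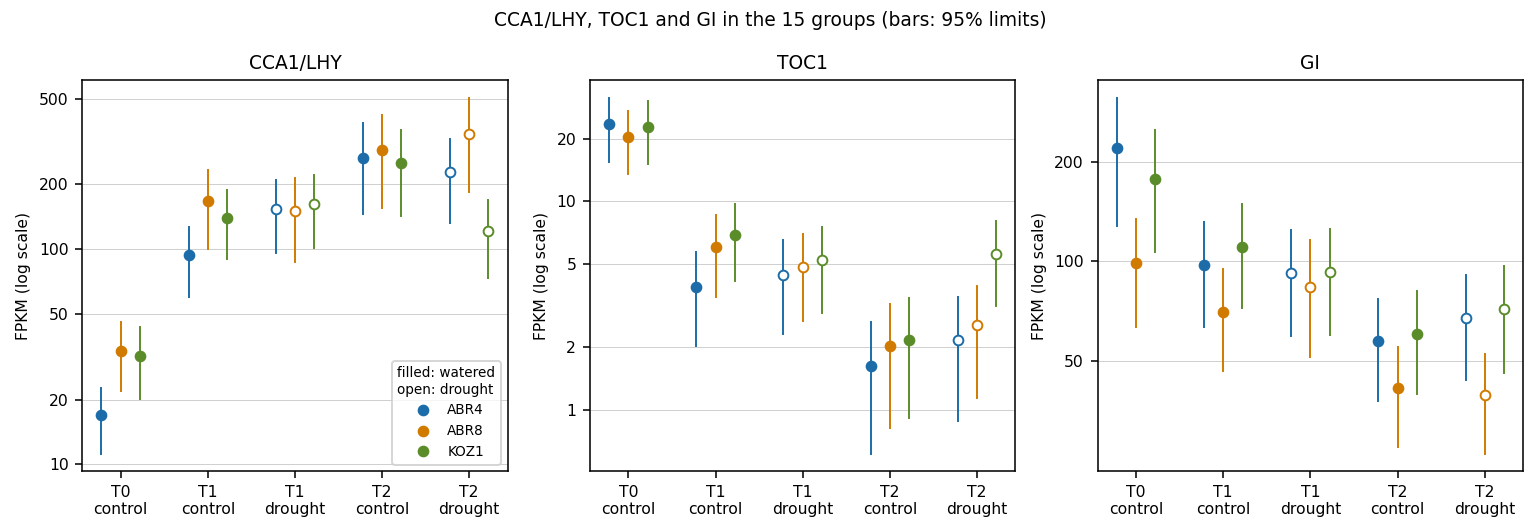
FPKM of CCA1/LHY, TOC1 and GI (vertical axes, log scale) in the 15 groups, placed by time point and treatment and coloured by line. Points are the authors' pooled values (filled for watered, open for drought) and vertical lines their 95% limits. CCA1/LHY climbs from 16.9 to 33.8 FPKM at T0 to 251 to 288 FPKM in the T2 controls while TOC1 and GI descend, and the open KOZ1 point at T2 (CCA1/LHY 121 FPKM, TOC1 5.60 FPKM) sits at the height of the T1 points.

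GI (Bradi2g05226, chromosome 2, 3809940 to 3819399), the GIGANTEA gene that links the clock to flowering and is expressed from the afternoon into the evening in Arabidopsis, followed TOC1 in direction but with a narrower span of 5.57-fold. At T0 its level was 220 FPKM in ABR4 (128 to 311), 99.0 FPKM in ABR8 (63.6 to 134) and 178 FPKM in KOZ1 (107 to 249). In the T1 controls it was 97.4, 70.6 and 111 FPKM in ABR4, ABR8 and KOZ1, and in the T2 controls 57.7, 41.5 and 60.6 FPKM. With drought it was 92.2, 83.6 and 92.9 FPKM at T1 and 67.3, 39.5 and 71.6 FPKM at T2. The groups formed a gradual series, with no neighbours in the order of levels whose limits were apart, and the limits were apart in 19 of the 36 pairs of a T0 group with a later group.

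The watered leaves were then compared over time within each line, where no group had been without water. The test was a z-test on the logarithm of FPKM with standard errors from the authors' limits, and a change counts as called where it reached 2-fold and its p, adjusted over all loci tested by the Benjamini-Hochberg method, was 0.05 or less. Of the 63 tests (7 genes in 9 comparisons), 15 were called. CCA1/LHY rose in 6 comparisons, TOC1 fell in 6 and GI fell in 3. The 3 comparisons of a line share groups, while those of different lines share none.

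From T0 to T1, CCA1/LHY rose and TOC1 fell in every line. These were 2 of the 7 genes in each line, against 0.285% of all loci in ABR4 (0.161% higher and 0.123% lower), 0.257% in ABR8 (0.0521% and 0.205%) and 1.21% in KOZ1 (0.36% and 0.854%). CCA1/LHY rose by 2.47 on the log2 scale in ABR4 (adjusted p 2.41e-08), 2.30 in ABR8 (adjusted p 2.32e-05) and 2.13 in KOZ1 (adjusted p 8.36e-06). TOC1 fell by 2.59 on the log2 scale in ABR4 (adjusted p 3.05e-06), and its log2 change was -1.75 in ABR8 (adjusted p 0.0105) and -1.72 in KOZ1 (adjusted p 0.00143). GI was at a log2 change of -1.17, -0.49 and -0.68 in ABR4, ABR8 and KOZ1 and was not called. The ABR4 values of this step are from libraries of 1 run and lane. In ABR8 both groups were from lane 2, but replicate 2 of T0 was from another run than the rest. In KOZ1 T0 was from lane 3 and T1 control from lanes 3 and 4.

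From T0 to T2 the same genes and GI were called in each line, 3 of the 7 genes, against 1.25% of all loci in ABR4 (0.614% higher and 0.641% lower), 2.45% in ABR8 (0.909% and 1.54%) and 1.93% in KOZ1 (0.598% and 1.33%). CCA1/LHY was 15.8-fold higher at T2 in ABR4 (log2 change 3.98, SE 0.41), 8.51-fold in ABR8 (3.09, SE 0.43) and 7.89-fold in KOZ1 (2.98, SE 0.42), with adjusted p of 5.88e-18, 9.48e-10 and 9.99e-10. TOC1 was 14.4-fold lower in ABR4, 10.1-fold lower in ABR8 and 10.4-fold lower in KOZ1, with adjusted p of 1.81e-10, 3.14e-08 and 5.49e-09. GI was 3.81-fold lower in ABR4 (adjusted p 0.000329), 2.39-fold lower in ABR8 (adjusted p 0.0257) and 2.93-fold lower in KOZ1 (adjusted p 0.00605). The dawn gene and both evening genes thus changed in opposite directions in watered leaves of all 3 lines. In ABR8 and KOZ1 the T0 and T2 libraries were from different lanes, so lane and time point cannot be told apart there. In ABR4 replicate 2 of the T2 controls was from another run than the T0 libraries.

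Between T1 and T2 none of the 7 genes was called in watered leaves, where 0.0387% of all loci were called in ABR4, 0.272% in ABR8 and 0.0925% in KOZ1. The directions were those of the earlier step. The log2 change of CCA1/LHY was 1.51 in ABR4 (95% interval 0.67 to 2.34), 0.79 in ABR8 (-0.10 to 1.67) and 0.85 in KOZ1 (0.05 to 1.66). That of TOC1 was -1.25 in ABR4 (-2.38 to -0.12), -1.58 in ABR8 (-2.63 to -0.53) and -1.67 in KOZ1 (-2.68 to -0.65). With the unadjusted p and a 2-fold change, CCA1/LHY in ABR4 and TOC1 in all 3 lines would pass, and with p adjusted over the 9 comparisons of watered leaves together, CCA1/LHY in ABR4 would be called (adjusted p 0.0496). The share of all loci passing under either of these rules is not given here, so these passes do not set the genes apart.

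The ratio of the dawn gene to an evening gene within a group does not depend on how the groups were scaled against each other. The log2 ratio of CCA1/LHY to TOC1 was -0.47, 0.74 and 0.49 in ABR4, ABR8 and KOZ1 at T0. In the T1 controls it was 4.59, 4.79 and 4.33 in ABR4, ABR8 and KOZ1, and in the T2 controls 7.35, 7.16 and 6.85. It spanned 7.82 on the log2 scale over the 15 groups (SE 0.66), and among the watered groups of 1 time point it spanned 1.21 at T0, 0.46 at T1 and 0.50 at T2. The watered leaves of the 3 lines thus lay close together at each time point and far apart between time points.

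With drought the log2 ratio of CCA1/LHY to TOC1 was 5.11, 4.96 and 4.95 in ABR4, ABR8 and KOZ1 at T1. At T2 it was 6.72 in ABR4 (95% limits 5.67 to 7.77), 7.08 in ABR8 (6.04 to 8.12) and 4.44 in KOZ1 (3.59 to 5.28). The KOZ1 value lay below its own T2 control of 6.85 (5.81 to 7.89) with limits that did not overlap, and between the 2 T1 values of KOZ1, 4.33 and 4.95. The ratio was not tested. Neither gene was called in KOZ1 T2 drought against control, where 8.34% of all loci were. How many other pairs of loci had ratios with limits apart was not counted, so this value is a description.

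The log2 ratio of CCA1/LHY to GI gave the same order. It was -3.70, -1.55 and -2.48 at T0 in ABR4, ABR8 and KOZ1, then -0.06, 1.24 and 0.33 in the T1 controls and 2.21, 2.79 and 2.05 in the T2 controls. KOZ1 T2 drought was at 0.76 (-0.00 to 1.52), near the T1 drought groups at 0.73, 0.85 and 0.80, while ABR4 and ABR8 T2 drought were at 1.77 and 3.12. At T0 the 3 lines were 2.15 apart, more than at any other time point for watered leaves, with ABR4 lowest.

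**Figure D2:**
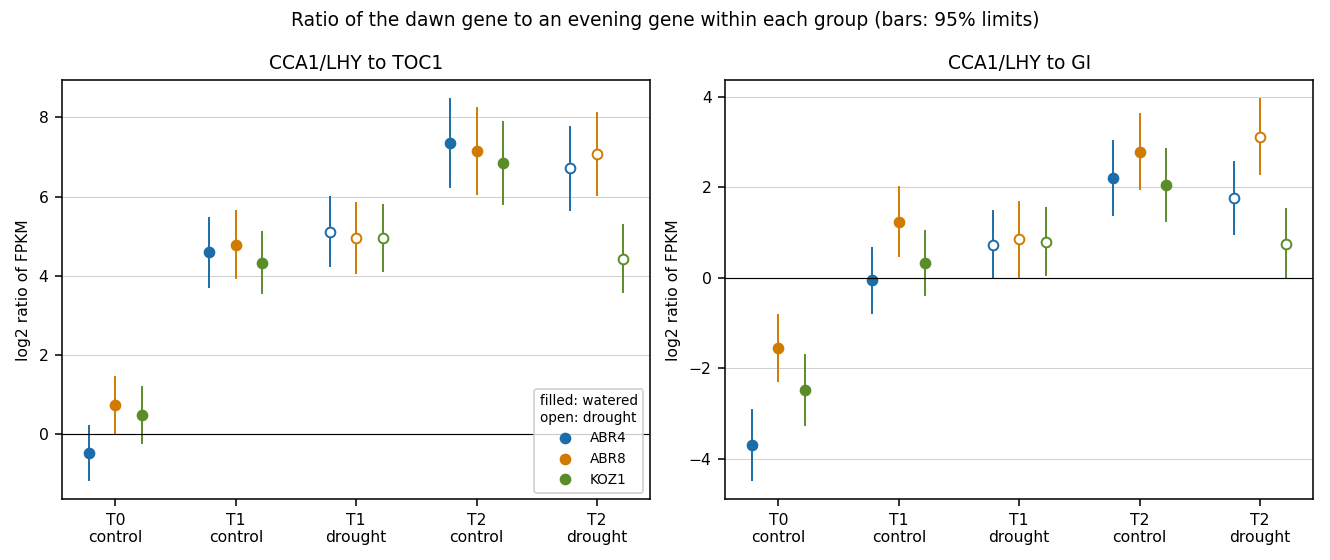
Log2 ratio of FPKM of CCA1/LHY to TOC1 (left) and to GI (right) within each of the 15 groups, with 95% limits as vertical lines; filled points are watered and open points drought groups, coloured by line. On the left the T0 groups sit between -0.47 and 0.74, the T1 groups between 4.33 and 5.11 and the T2 groups between 6.72 and 7.35, apart from KOZ1 T2 drought at 4.44.

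The PRR genes of the day did not share this pattern. PPD1/PRR37 (Bradi1g16490, chromosome 1, 13339062 to 13352030), the photoperiod response gene of barley and wheat, ranged from 12.5 FPKM in KOZ1 T1 drought to 29.1 FPKM in KOZ1 T2 drought (limits 18.1 to 40.1). Its locus in the table also holds Bradi1g16480, and 3 RefSeq coding genes overlap it, so the value may not be that of PPD1/PRR37 alone. At T0 it was at 14.1, 12.7 and 12.6 FPKM in ABR4, ABR8 and KOZ1, in the T1 controls at 12.6, 13.1 and 12.8 FPKM, and in the T2 controls at 16.1, 18.4 and 14.99 FPKM. KOZ1 T2 drought was followed by ABR4 T2 drought at 22.2 FPKM (13.4 to 30.9), and the limits of these neighbours overlapped.

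PRR73 (Bradi1g65910, chromosome 1, 65025304 to 65040626), the paralogue of PRR37 in grasses, ranged from 36.7 FPKM in ABR8 T0 to 66.2 FPKM in KOZ1 T1 control. Its locus is also overlapped by 3 RefSeq coding genes. It was at 43.2, 36.7 and 43.8 FPKM at T0, at 53.4, 60.1 and 66.2 FPKM in the T1 controls and at 52.2, 55.7 and 56.5 FPKM in the T2 controls of ABR4, ABR8 and KOZ1. The 4 lowest groups were the T0 groups and KOZ1 T2 drought, the latter at 38.7 FPKM (24.8 to 52.6), but the limits overlapped in all 105 pairs of groups.

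ELF3 (Bradi2g14290, chromosome 2, 12879669 to 12883782), part of the evening complex of the clock and a repressor of flowering in grasses, ranged from 21.6 FPKM in KOZ1 T2 drought (14.5 to 28.7) to 48.4 FPKM in ABR4 T1 drought (32.5 to 64.3). At T0 it was at 40.1, 26.5 and 28.6 FPKM in ABR4, ABR8 and KOZ1, in the T1 controls at 39.6, 38.6 and 30.8 FPKM and in the T2 controls at 47.5, 42.9 and 37.3 FPKM. With drought at T2 it was at 47.4 FPKM in ABR4 (32.0 to 62.9) and 43.0 FPKM in ABR8 (29.0 to 56.9), both with limits apart from those of KOZ1. In ABR4 the level was above that of the other lines in each of the 5 time and treatment combinations, which was past the call in none of the watered ones.

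PHYC (Bradi1g08400, chromosome 1, 5923000 to 5928207), which is needed for flowering under long days in Brachypodium, was the steadiest of the 7 genes. It ranged from 21.8 FPKM in ABR8 T0 to 32.2 FPKM in ABR4 T2 drought, a span of 1.48-fold, and no pair of groups had limits that were apart. None of PPD1/PRR37, PRR73, ELF3 and PHYC was called in any of the 9 comparisons of watered leaves, where their log2 changes lay between -0.26 and 0.71.

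**Figure D3:**
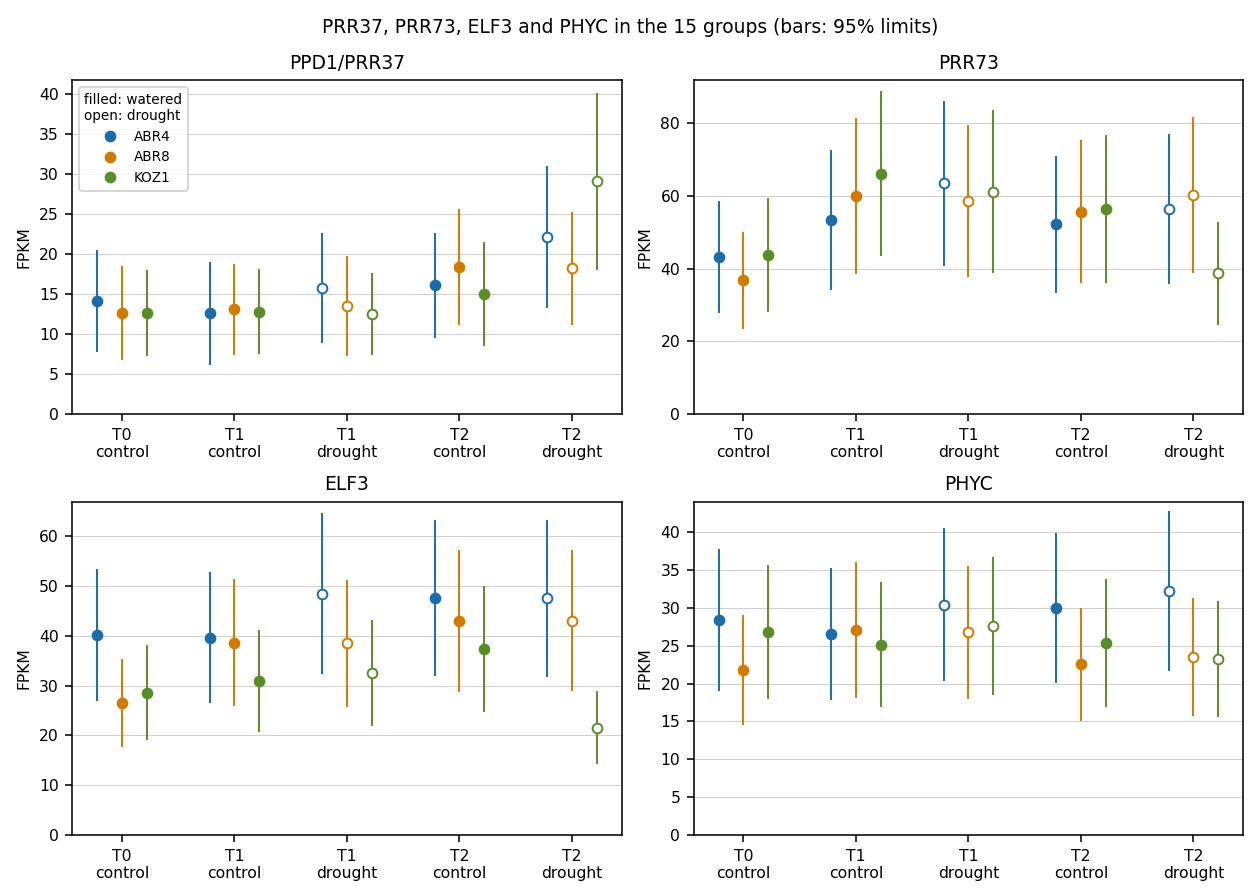
FPKM of PPD1/PRR37, PRR73, ELF3 and PHYC (vertical axes, linear from 0) in the 15 groups, placed by time point and treatment and coloured by line, with 95% limits as vertical lines. The open KOZ1 point at T2 is the highest for PPD1/PRR37 (29.1 FPKM) and the lowest for ELF3 (21.6 FPKM), while PHYC stays between 21.8 and 32.2 FPKM.

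Among the 13805 loci with at least 1 FPKM in every group, the log2 span from the lowest to the highest group had a median of 1.13. The span of CCA1/LHY was at percentile 98.9 of these loci, that of TOC1 at percentile 98.1 and that of GI at percentile 90.2. PPD1/PRR37 at percentile 55.0 and ELF3 at percentile 52.3 were near the middle, and PRR73 at percentile 32.2 and PHYC at percentile 10.9 were below it.

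The drought groups were compared with the control of the same line and time point. None of the 42 tests was called, against 0.234% and 0.0698% of all loci in ABR4 at T1 and T2, 0.037% and 0.0382% in ABR8 and 0.459% and 8.34% in KOZ1. By the same z-test, 4 of the 42, all in KOZ1 at T2, had an unadjusted p of at most 0.05. The share of all loci at this p alone was not counted. Of these 4 tests, 2 also changed at least 2-fold. In the other 5 comparisons the log2 changes of the 7 genes lay between -0.40 and 0.71. Taking the share of the other line's transcripts out of the T1 drought levels of ABR4 and ABR8, an alternative chosen after seeing the data, changed several of these values. In ABR8 the log2 change of ELF3 went from -0.00 to -0.58, PPD1/PRR37 from 0.04 to -0.31, GI from 0.24 to 0.04, PRR73 from -0.04 to -0.20 and PHYC from -0.02 to -0.30. In ABR4 ELF3 went from 0.29 to 0.62, PPD1/PRR37 from 0.32 to 0.57, PHYC from 0.20 to 0.41, PRR73 from 0.25 to 0.38 and GI from -0.08 to 0.08. CCA1/LHY moved least, from 0.71 to 0.74 in ABR4 and from -0.15 to -0.18 in ABR8, and TOC1 went from 0.19 to 0.01 and from -0.32 to -0.18. These adjusted values have no test.

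All 4 of these tests were in KOZ1 at T2. Replicate 3 of KOZ1 T2 drought was from another run and lane than the T2 controls of KOZ1, which were from lane 4. The log2 change with drought was -1.05 for CCA1/LHY (SE 0.43, p 0.0142, adjusted p 0.125) and 1.36 for TOC1 (SE 0.53, p 0.0106, adjusted p 0.1003). It was 0.96 for PPD1/PRR37 and -0.79 for ELF3, each with an adjusted p of 0.172. GI was at 0.24, PRR73 at -0.54 and PHYC at -0.13, of which PRR73 and PHYC turned to 0.10 and 0.52 with all groups scaled to the same sum of FPKM and GI went to 0.89 (adjusted p 0.0764). At the unadjusted p with a 2-fold change, 13.1% of all loci passed in this comparison and 2 of the 7 genes did. The sum of FPKM in this group was lower than in all others, so the values were also taken after scaling. With all groups set to the same sum, TOC1 (log2 change 2.01, adjusted p 0.00244) and PPD1/PRR37 (1.61, adjusted p 0.00199) would be called. CCA1/LHY would stand at -0.40 (adjusted p 0.638) and ELF3 at -0.14 (adjusted p 0.897). This scaling moved all loci of the comparison up by 0.65 on the log2 scale. With the same median, which moved them by -0.12, none of the 7 genes was called. CCA1/LHY then stood at -1.17, ELF3 at -0.91, TOC1 at 1.25 and PPD1/PRR37 at 0.84. The share of all loci called under either scaling was not counted, so the calls with the same sum do not set these genes apart.

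**Figure D4:**
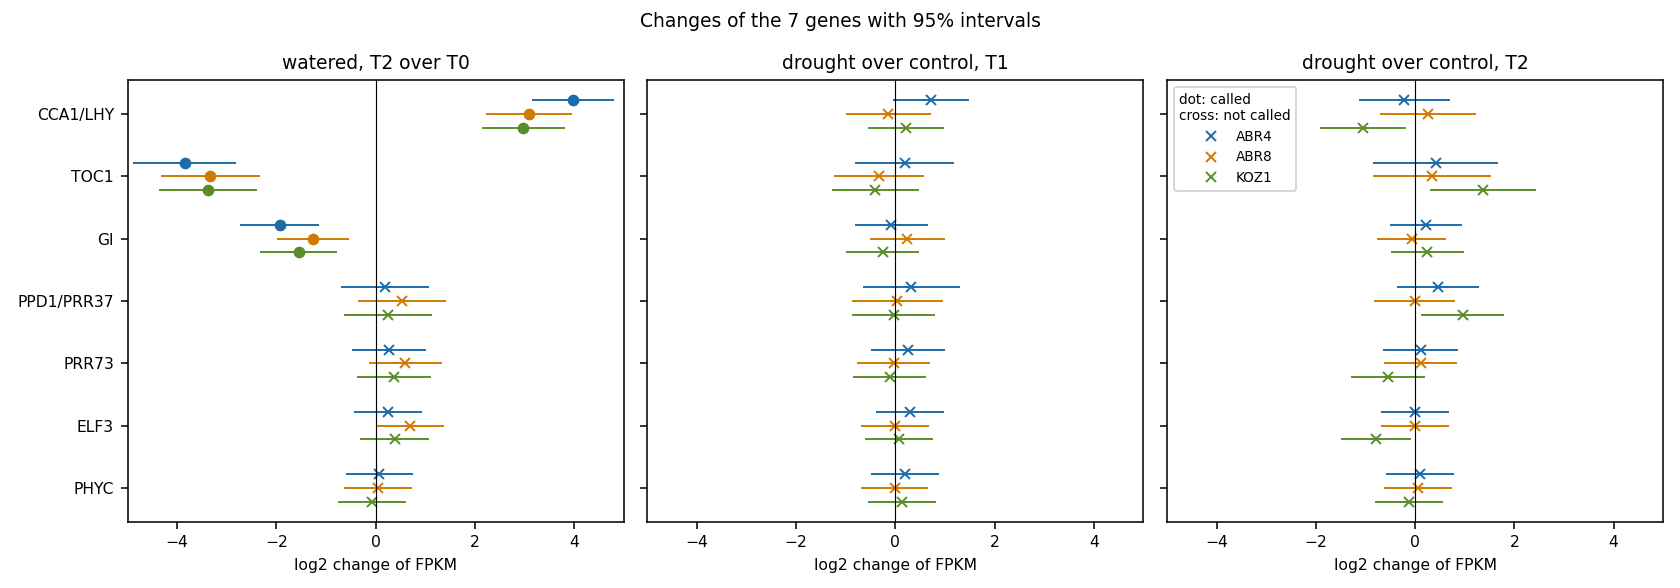
Log2 changes of FPKM of the 7 genes with 95% intervals, from T0 to T2 in watered leaves (left), and with drought against control at T1 (centre) and T2 (right), coloured by line; dots were called and crosses were not. CCA1/LHY, TOC1 and GI stand off the line at 0 in the left panel in all 3 lines, and no gene was called in the centre and right panels, where KOZ1 at T2 lies farthest out for CCA1/LHY (-1.05) and TOC1 (1.36).

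The drought responses were also compared with each other. None of the 63 tests of a difference between lines or between T1 and T2 was called, and by the same z-test 3 had an unadjusted p of at most 0.05. The share of all loci at this unadjusted p is not given here, so these 3 tests do not set the genes apart. Over all loci, 0.0976% were called for ABR8 minus ABR4, 0.151% for KOZ1 minus ABR4 and 0.301% for KOZ1 minus ABR8 at T1. At T2 the shares were 0.0634%, 2.23% and 4.95%, and for T2 minus T1 they were 0.0132% in ABR4, 0.0213% in ABR8 and 4.78% in KOZ1. In KOZ1 the response at T2 minus that at T1 was 1.77 for TOC1 (SE 0.69, adjusted p 0.146) and -1.27 for CCA1/LHY (SE 0.57, adjusted p 0.276). At T2 the response of CCA1/LHY in KOZ1 minus that in ABR8 was -1.31 (SE 0.65, adjusted p 0.377). The response of KOZ1 is therefore not shown to differ from those of the other lines in any of the 7 genes on the deposited scale. With all groups set to the same sum, 3 differences would be called, namely T2 minus T1 in KOZ1 for TOC1 (2.53, adjusted p 0.00703) and PPD1/PRR37 (1.75, adjusted p 0.0425), and KOZ1 minus ABR8 at T2 for PPD1/PRR37 (1.80, adjusted p 0.0283). With the same median none would be. The share of all loci called under either scaling was not counted.

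Between lines at the same time point and treatment, 2 of 105 tests were called, both with KOZ1 T2 drought. CCA1/LHY was at 121 FPKM there against 344 FPKM in ABR8 T2 drought (log2 difference -1.51, SE 0.45, adjusted p 0.0084), where 14.2% of all loci were called (7.39% lower). ELF3 was at 21.6 FPKM against 47.4 FPKM in ABR4 T2 drought (log2 difference -1.14, adjusted p 0.0142), where 8.74% of all loci were called (4.35% lower). These backgrounds are high, so that 1 call among 7 genes in each comparison does not set these genes apart. Scaled to the same sum, the differences were -0.92 and -0.60 and neither was called, while in KOZ1 T2 drought TOC1 (1.90 against ABR4 and 1.72 against ABR8), GI (1.44 against ABR8) and PPD1/PRR37 (1.25 against ABR8) would be called as higher. Scaled to the same median, the differences were -1.60 (adjusted p 0.00424) and -1.24 (adjusted p 0.00604), and both stayed called. ELF3 against ABR8 would then be called as well (-1.09, adjusted p 0.0131). The share of all loci called under either scaling was not counted.

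In watered leaves no gene was called between lines on the deposited scale. The share of all loci called was 4.06% for ABR8 against ABR4, 2.08% for KOZ1 against ABR4 and 1.97% for KOZ1 against ABR8 at T0, 3.52%, 2.21% and 4.08% at T1 and 2.5%, 1.64% and 2.97% at T2. With drought it was 0.29%, 1.29% and 1.09% at T1, where no gene was called either, and 3.14% for ABR8 against ABR4 at T2. At T1 the drought groups of ABR4 and ABR8 each held transcripts of the other line, which would narrow a difference between them. With that share taken out, ELF3 stood at 61.1 FPKM in ABR4 and 25.8 FPKM in ABR8, which was not tested. The lack of calls there therefore does not show that these lines are alike. Of the 7 genes in watered leaves, CCA1/LHY and GI in the T0 groups of ABR8 and ABR4 came nearest to a call. CCA1/LHY was higher in ABR8 than in ABR4 by 1.003 on the log2 scale (adjusted p 0.0959), which with all groups set to the same sum became a call (1.14, adjusted p 0.0376), and GI was 2.22-fold lower (log2 difference -1.15, adjusted p 0.0857). The share of all loci called with the same sum was not counted. TOC1 at T0 differed little between these lines, at 20.3 and 23.4 FPKM. At T2 with drought TOC1 was higher in KOZ1 than in ABR4 by 1.36 on the log2 scale (adjusted p 0.104) and than in ABR8 by 1.14 (adjusted p 0.136), neither past the call.

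Loci whose levels followed those of the clock genes were found by Pearson correlation of log2(FPKM + 1) over the 15 groups, among 13804 loci. The points share groups, and the values are descriptions. Since the loci were chosen for this likeness, sharing the highest or lowest groups of a gene follows largely from the choice. Closest to CCA1/LHY were Bradi2g09720 (r = 0.987, from 1.44 FPKM in ABR4 T0 to 22.3 FPKM in ABR8 T2 drought), Bradi3g37730 (r = 0.981) and the locus of Bradi4g00330 and Bradi4g00335 (r = 0.974). All 3 were lowest in ABR4 T0 and highest in ABR8 T2 drought, the same groups as for CCA1/LHY. Closest to TOC1 were Bradi3g51520 (r = 0.982, from 2.30 to 50.3 FPKM), Bradi5g25720 (r = 0.978) and Bradi1g24920 (r = 0.976), each highest in a T0 group and lowest in a T2 group.

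Closest to GI were the locus of Bradi1g73110 and Bradi1g73120 (r = 0.976), Bradi2g50850 (r = 0.963, from 4.83 FPKM in ABR8 T2 drought to 86.0 FPKM in ABR4 T0) and Bradi1g50590 (r = 0.952), all 3 highest in ABR4 T0. Closest to PPD1/PRR37 were Bradi3g29990 (r = 0.961), Bradi2g47940 (r = 0.949) and Bradi1g35780 (r = 0.948, from 17.6 FPKM in KOZ1 T0 to 75.2 FPKM in KOZ1 T2 drought), all 3 highest in KOZ1 T2 drought. By Spearman correlation the loci, in the order named, ranked 2, 14 and 14 for CCA1/LHY and 7, 4 and 36 for TOC1. For GI they ranked 6, 7 and 7, and for PPD1/PRR37 1, 135 and 7. With CCA1/LHY, 68 loci (0.493%) had r above 0.9 and 41 (0.297%) had r below -0.9. With TOC1 the counts were 41 and 62, with GI 32 and 20 and with PPD1/PRR37 45 and 8. Among the 7 genes, CCA1/LHY was at r = -0.95 with TOC1 and -0.89 with GI, and TOC1 at 0.85 with GI, while PPD1/PRR37 was at 0.38 with CCA1/LHY.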

How the data were processed

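Leaf RNA libraries were sequenced by the authors on an Illumina HiSeq from TruSeq libraries. Per the submitters' processing notes, Trim Galore 0.4.1, TopHat2 2.1.1, Bowtie2 2.2.9, Cufflinks 2.2.1 and Cuffdiff were used, and the study's methods name the v3.0 assembly. The deposited table has 1 FPKM per locus and group with 95% limits, for which the authors had Cuffdiff pool 3 libraries. Read counts per library are not used here, and the limits set the precision. Of the deposited columns of groups, 0 were left out. Values of 0 are as listed, and 4006 of 33852 loci were at 0 in all groups.

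The standard error was the distance from FPKM to its upper limit divided by 1.96. Pairs of groups were compared by a two-sided z-test of the natural log of FPKM with errors by the delta method (on the difference in FPKM where 1 group was at 0), adjusted by the Benjamini-Hochberg method over all loci within each of 30 comparisons, and in the 9 comparisons of drought responses without the 2-fold rule. The normal approximation rests on the authors' limits, not on single libraries. The code was tested on simulated data. Starts were moved to counting from 1. RefSeq genes (v3.0 assembly) were laid over the loci by coordinates.

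The genes named are the 7 genes in all groups and, for 4 of them, the 3 loci with the highest correlation. The genes, lists and tests were chosen with earlier results of these data known. A wider list of clock and light-signalling genes and a check of leaf markers had been planned from gene descriptions and are not used here, since the gene table used holds none; sequences are not printed for the same reason. The share of the other line in the T1 drought groups was taken from loci at 0 in 1 line and subtracted from the level. The code ran in Python 3.11.15 (pandas 2.3.3, numpy 2.4.6, matplotlib 3.10.9, scipy 1.17.1).

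The alternatives were adjustment over all comparisons of a kind, the unadjusted p, a test on the difference in FPKM, non-overlapping limits, a 4-fold change, a minimum of 1 FPKM, pseudocounts of 1 and 0.1, a limit divisor of 2, scaling to the same median or sum, and ratios to GI.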

Additional observations from a re-analysis of the deposited data

How the results depend on the processing

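No paired analysis was possible because the table holds 1 pooled value per group and its columns carry no replicates; for the same reason no library could be left out. The 15 calls in watered leaves numbered 10 to 20 over the alternatives, with 10 for a test on the difference in FPKM and 10 for a 4-fold change, and 18 for limits that do not overlap. The test on the difference in FPKM ended the calls of GI in all 3 lines and of CCA1/LHY and TOC1 in ABR8 from T0 to T1, and adjustment over all 9 comparisons ended that of GI in ABR8 (adjusted p 0.0585) and added CCA1/LHY from T1 to T2 in ABR4 (adjusted p 0.0496). Of 187 values of single calls under the alternatives, 171 stayed called in the same direction and 16 were no longer called. The unadjusted p and the limit divisor of 2 could not end a call, and the pseudocounts could do so only through the 2-fold rule. The 171 are therefore no measure of stability. The 4-fold change ended 7 calls, the test on the difference in FPKM 6, the same sum 2 and adjustment over all comparisons of a kind 1.

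The drought calls went from 0 to 2 with the unadjusted p and to 2 with groups scaled to the same sum. The calls between lines went from 2 to 6 with the unadjusted p, 5 with the same sum, 3 with the same median, 1 with the test on the difference in FPKM, and 0 with a 4-fold change. Without KOZ1 T2 drought, an alternative chosen after seeing the data, they went to 0. The calls of differences between drought responses went from 0 to 3 with the unadjusted p and to 3 with the same sum. Scaling to the same sum shifted all loci of KOZ1 T2 drought against its control by 0.65 on the log2 scale and scaling to the same median by -0.12; PRR73 turned to 0.10 and PHYC to 0.52 with the same sum, both not called. The cause of these changes with the scaling was not tested, and the share of all loci called after scaling was not counted. For the other rules it is given only for KOZ1 T2 drought against control at the unadjusted p with a 2-fold change (13.1%). These counts therefore do not set the 7 genes apart. The span of the log2 ratio was 7.82 with TOC1 and 6.83 with GI.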

Other observations

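Taking the share of the other line out of the T1 drought groups moved CCA1/LHY by at most 0.03 on the log2 scale and ELF3 the most, from 38.5 to 25.8 FPKM in ABR8 and from 48.4 to 61.1 FPKM in ABR4. PPD1/PRR37 moved from 15.7 to 18.6 FPKM in ABR4 and from 13.5 to 10.6 FPKM in ABR8. TOC1 moved from 4.42 to 3.91 FPKM in ABR4 and from 4.83 to 5.34 FPKM in ABR8.

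The ratio of PPD1/PRR37 to its paralogue PRR73 was higher in KOZ1 T2 drought, at -0.41 on the log2 scale, than in any other group, and the lowest was KOZ1 T1 control at -2.37. The log2 ratio of GI to TOC1, both evening genes, spanned 2.86 (SE 0.63), from 2.29 in ABR8 T0 to 5.14 in ABR4 T2 control.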
